A study of Mus musculus with 4 samples.

Results

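Cytosolic RNA and Z-nucleic acid sensors were followed in macrophages without MyD88, an adaptor shared by the interleukin-1 receptor and nearly every Toll-like receptor. The group was set by name as 9 genes (Ddx58, Ifih1, Dhx58, Ddx60, Trim25, Mavs, Eif2ak2, Zbp1 and Adar) out of 18193 gene symbols on the array, and every probe set whose only symbol was one of them was taken, 22 of 45037. A probe set is a group of short oligonucleotides on an Affymetrix Mouse430_2 array aimed at 1 transcript. Zymosan-stimulated cells (2 arrays) had received 100 ug/ml zymosan, a yeast cell wall particle, for 120 min, and unstimulated cells (2 arrays, 0 min) had received no stimulus. Both groups were MyD88 -/- bone marrow-derived macrophages that had been grown over 6 days with recombinant human M-CSF, a macrophage growth factor. The comparison asks how sensor transcripts stood after zymosan where MyD88 was absent. No array of MyD88-sufficient cells was analysed here. Nothing in the labels ties the arrays to separate animals or cultures, so each p-value is set against array-to-array spread that may be purely technical.

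These proteins detect RNA in the cytosol that looks foreign, chiefly double-stranded RNA of viruses. RIG-I (from Ddx58) and MDA5 (from Ifih1) are helicases that bind such RNA and then engage MAVS on mitochondria, which leads through the kinases TBK1 and IKK-epsilon to the factors IRF3 and IRF7 and to interferon-beta. PKR (from Eif2ak2) answers double-stranded RNA by phosphorylating the translation factor eIF2-alpha, ZBP1 binds nucleic acids in the left-handed Z form and can start necroptosis through RIPK3, and ADAR edits adenosine to inosine in double-stranded RNA, which keeps cellular RNA from being sensed. Most genes of this group are themselves induced by type I interferon, so their transcripts are also used as readouts of the interferon tone of a macrophage.

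The promoters of 7 of the 9 genes were at hand in RefSeq's GRCm38.p6 promoter table, each with 250 bases before and 50 after an annotated transcript start, and stretches of 6 of them are shown because most of these genes were called lower and Mavs was not. Factors of the interferon response recognise paired GAAA blocks, searched here on both strands as GAAA, any 2 bases and GAAA again (TTTC, 2 bases and TTTC on the opposite strand). In the lines that follow the capitals mark each match to this 10-base motif, and in the Adar line a match to its first 8 bases (GAAA, any 2 bases and GA).
Ddx60, chr8:61927987-61928086, plus strand, the 100 bases before the start: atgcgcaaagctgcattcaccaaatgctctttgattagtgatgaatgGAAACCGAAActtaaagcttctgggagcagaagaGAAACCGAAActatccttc
Ddx58, chr4:40239811-40239895, minus strand, 70 bases before to 15 after: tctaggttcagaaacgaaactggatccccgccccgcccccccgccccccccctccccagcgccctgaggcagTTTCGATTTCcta
Eif2ak2, chr17:78882543-78882622, minus strand, 50 bases before to 30 after: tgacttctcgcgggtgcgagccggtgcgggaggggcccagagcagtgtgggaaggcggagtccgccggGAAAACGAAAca
Ifih1, chr2:62646211-62646240, minus strand, bases 16 to 45 after the start: gtctggagaagagaatcGAAACAGAAAccg
Mavs, chr2:131233963-131234062, plus strand, the 100 bases before the start: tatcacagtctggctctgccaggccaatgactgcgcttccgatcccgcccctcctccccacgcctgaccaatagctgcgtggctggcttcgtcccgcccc
Adar, chr3:89730733-89730762, plus strand, bases 16 to 45 after the start: aagccttttcaaggaaacGAAAGTGAactc
The 10-base motif stood in the promoter window of 4 of the 7 genes, Ddx58, Ddx60, Eif2ak2 and Ifih1, and Ddx60 held it at 2 places. It stood in windows of 3.99% of all 27025 genes there, and in 3.44% of all 32851 promoter windows of the same length. The shorter form stood in windows of 6 of the 7 genes, Adar and Trim25 added, but also in those of 23.4% of all genes (21.0% of all windows), and the matches of the longer form are among its own. Mavs held neither. A match describes the letters and does not show a site in use. Dhx58 and Zbp1 are without a promoter stretch here.

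Most sensor genes were lower after zymosan, with Mavs and Eif2ak2 the 2 genes without a call. The largest fitted falls were at 1 probe set each of the helicases Dhx58 and Ddx60. The called probe sets were lower by 1.53-fold (Trim25) to at least 4.61-fold (Dhx58 at 1420768_a_at). That Dhx58 probe set passed the filter described next only through its unstimulated arrays. The probe set of highest mean for Dhx58, 1451426_at, was 2.48-fold lower, less than that of Ddx58 (3.14-fold) or Zbp1 (2.83-fold). Of the 22 probe sets, 19 reached the 40th percentile of an array (4.36 to 4.39 on the log2 scale, the filter's level) on at least 2 arrays and were tested. Of these, 11 fell by limma's test (adjusted p under 0.05 after Benjamini-Hochberg over the 27571 probe sets kept), and 0 rose (1 had an unadjusted p under 0.05 in that direction, and 15 in the other). Among all kept probe sets 7.45% were called lower and 8.48% higher. The 11 belonged to 7 genes, and 9 of them were at least 2-fold lower, which 2.44% of all kept probe sets were. On 16 of the 19 both zymosan arrays lay below both unstimulated arrays, where 30.2% of all kept probe sets did so, and on 1 they lay above them, where 30.4% did. The median log2 difference, zymosan minus unstimulated, was -0.74 for the 19 and -0.01 for all kept probe sets.

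With 1 probe set a gene, that of highest mean, 5 of the 9 genes fell (Ddx58, Ifih1, Dhx58, Ddx60 and Zbp1) and 0 rose (at an unadjusted p under 0.05, 7 lower and 0 higher), against 6.73% lower and 10.1% higher among 13222 genes by limma. The median difference of the 9 was -1.01 on the log2 scale, and that of all genes 0.00. Leaving out a zymosan array cut the counts: 3 of the 19 probe sets were lower without zymosan replicate 1 and 3 without zymosan replicate 2, each time those of Ddx60 (1451777_at), Dhx58 (1420768_a_at) and Ddx58 (1456890_at). Those fits called 1.49% and 0.569% of all kept probe sets lower. At 1 probe set a gene, Ddx60 alone of the 9 was called in each, beside 0.998% and 0.756% of all genes. A random block for the processing day left 8 of the 19 lower, beside 2.35% of all, and a test against a minimum fold of 1.5 (limma's treat) left 4, beside 0.715%. All these probe set counts took in Dhx58 at 1420768_a_at, which was kept only through its unstimulated arrays. So did the 11 called and the 9 at least 2-fold lower, and for that probe set the test leans towards a fall. At 1 probe set a gene treat called Ddx60 alone, beside 0.575% of all genes, while the mean over a gene's probe sets called 7 of the 9 lower, beside 8.36%.

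**Figure D1:**
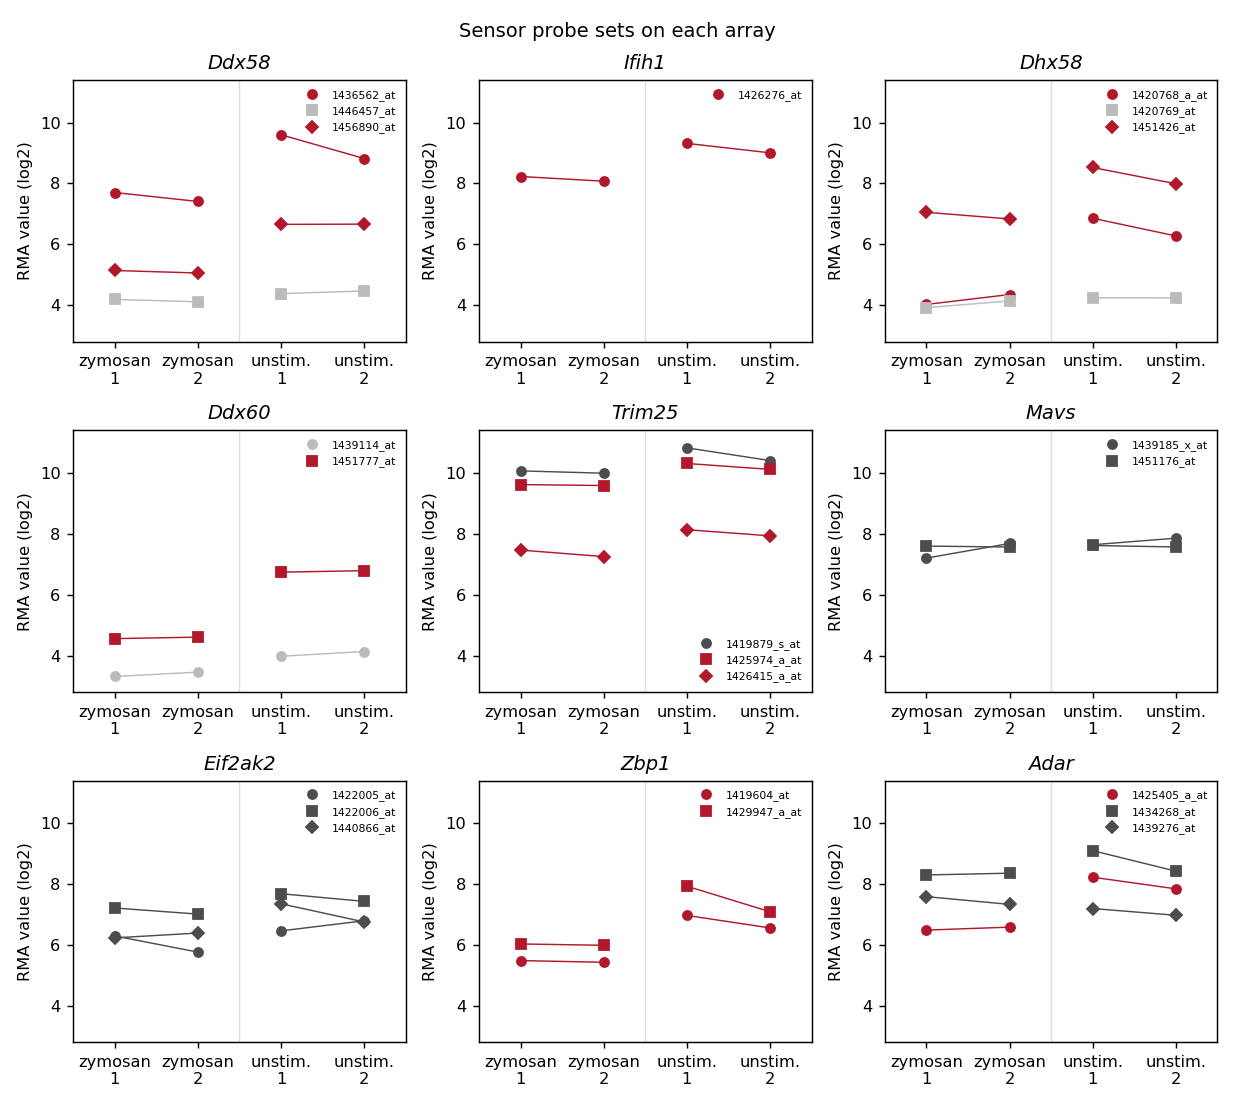
RMA values (log2) of all 22 sensor probe sets on each array, 1 panel a gene, with a line joining the arrays of a group. Red marks probe sets that were lower by limma's test, dark grey those tested and not called, and light grey the 3 that did not reach the filter's level on 2 arrays. Both zymosan arrays lie below both unstimulated arrays for the red probe sets, while the Mavs probe sets overlap.

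The 4 arrays limit what can be said of any of these genes. Scanner settings put 16 days between the unstimulated arrays, while the zymosan arrays shared 1 day, day 153 counted from the first array, with a different operator and project. Stimulus, day and operator therefore cannot be told apart. In their titles the unstimulated arrays bear LPS and PIC and end in 0, and every other label calls them unstimulated, at 0 min. Of the macrophage markers, 9 of 9 lay above the filter's level on at least 1 array of each group, and their summed level was 15.56 and 15.57 on zymosan arrays and 15.72 and 15.80 on unstimulated arrays (log2 of the sum of linear values). By limma 5 of these 9 were called lower and 0 higher (at an unadjusted p under 0.05, also 5 and 0), with a median difference of -0.40: Itgam 3.17-fold, Fcgr1 2.15-fold, Adgre1 1.77-fold, Cd14 1.63-fold and Csf1r 1.32-fold. Beside this and the marker counts that follow, 6.73% of all genes were called lower and 10.1% higher. Lyz2, the macrophage lysozyme gene, was not called (difference -0.04). Summed granulocyte markers were at 12.29 and 12.35 on zymosan arrays and 10.09 and 10.16 on unstimulated arrays, with 9 of 10 called higher. Summed markers of plasmacytoid dendritic cells, which make much interferon, were at 9.81 and 9.82 on zymosan arrays and 10.50 and 10.57 on unstimulated arrays. Of 5 kept genes 2 (Bst2 and Tcf4) were called lower, and Klk1, Pacsin1 and Siglech were not called. Most of the sum was Bst2, at 9.21 and 9.20 on zymosan arrays and 10.03 and 10.06 on unstimulated arrays. Siglech, a defining marker of these cells, read 5.29 and 5.20 on zymosan arrays and 5.25 and 5.38 on unstimulated arrays. Summed B cell markers were at 9.09 and 8.98 on zymosan arrays and 9.64 and 10.21 on unstimulated arrays, with 2 of 5 kept genes lower and Ms4a1 below the filter's level throughout. Most of that sum was Ighm, at 8.68 and 8.51 on zymosan arrays and 9.33 and 10.02 on unstimulated arrays. Ighm and Cd79b were the 2 called lower, and Cd79a, Pax5 and Blk were not called. Summed markers of T and NK cells lay between 8.17 and 8.30 on all 4 arrays, those of conventional dendritic cells between 8.29 and 8.55, of mast cells between 6.90 and 7.02 and of stromal cells between 7.21 and 7.40. In that order, 4 of 9, 2 of 7, 4 of 7 and 3 of 7 of these markers lay below the filter's level on all arrays. Such sums do not show whether these cells were present. Those of erythroid cells and megakaryocytes were at 13.19 and 13.26 on zymosan arrays and 12.76 and 12.87 on unstimulated arrays. Nearly all of that sum was Pf4, at 13.14 and 13.22 on zymosan arrays and 12.70 and 12.81 on unstimulated arrays. Pf4 was the 1 of 5 kept genes called higher, and the other 4 were not called. The part of these marker shifts in the sensor values was not tested, and in such bulk RNA fewer cells of a type and less RNA per cell cannot be told apart.

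Ddx58, which encodes RIG-I, the sensor of RNA ends that carry a triphosphate, had 3 probe sets. At 1436562_at it read 7.70 and 7.41 on zymosan arrays and 9.60 and 8.82 on unstimulated arrays (log2). The groups did not overlap, and the fall was 3.14-fold (difference -1.65, SE 0.27, adjusted p = 0.0161). At 1456890_at it read 5.14 and 5.06 on zymosan arrays and 6.66 and 6.66 on unstimulated arrays, a fall of 2.95-fold (SE 0.10 on the log2 scale, adjusted p = 0.00222). Both readings gave nearly the same difference, although the unstimulated arrays were 0.78 apart at the first and 0.01 apart at the second. The remaining probe set, 1446457_at, lay between 4.11 and 4.47 on all arrays and was below the filter's level on 3 of them, so it was not tested.

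Ifih1, which encodes MDA5, the sensor of long double-stranded RNA, had 1 probe set. It read 8.23 and 8.07 on zymosan arrays and 9.32 and 9.01 on unstimulated arrays. The zymosan arrays were lower by 2.01-fold (difference -1.01, SE 0.14, adjusted p = 0.0119), the smallest fall among the 3 RIG-I-like receptors, with a 95% interval of -1.37 to -0.65. Without zymosan replicate 1 or zymosan replicate 2 it was not called.

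Dhx58 encodes LGP2, the receptor of the family that lacks signalling domains and tunes the others. At 1420768_a_at it read 4.03 and 4.35 on zymosan arrays and 6.86 and 6.28 on unstimulated arrays. Both zymosan values were below the filter's level, so the fall is given as at least 4.61-fold (fitted difference -2.38, SE 0.22, adjusted p = 0.00449). Dhx58 passed the filter here only through the unstimulated arrays, where it was high, so this test leans towards a fall. At 1451426_at it read 7.05 and 6.84 on zymosan arrays and 8.52 and 7.99 on unstimulated arrays, 2.48-fold lower (SE 0.20 on the log2 scale, adjusted p = 0.0136). The fitted differences of these 2 probe sets were 1.06 apart, with 95% intervals of -2.93 to -1.82 and -1.81 to -0.82, and the difference between them was not itself tested. The third, 1420769_at, lay below the level on all 4 arrays, between 3.92 and 4.24.

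Ddx60, a helicase reported to assist RIG-I-like receptors and itself interferon-induced, had the widest gap between the groups among the called probe sets. At 1451777_at it read 4.56 and 4.61 on zymosan arrays and 6.74 and 6.79 on unstimulated arrays. The arrays within each group were 0.05 apart and the groups 2.13 apart at their closest, a fall of 4.54-fold (SE 0.10 on the log2 scale, adjusted p = 0.00113). It was the only one of the 9 genes, at 1 probe set a gene, called when either zymosan array was left out. Its other probe set, 1439114_at, was below the filter's level on all 4 arrays, at 3.31 and 3.46 with zymosan and 3.98 and 4.13 without stimulus. Without any filter that probe set too was called lower (adjusted p = 0.0251 by limma, beside 3.87% of 45037 probe sets). The promoter stretch shown for it holds the motif at 2 places, 53 and 19 bases before the start.

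Trim25, the ubiquitin ligase that helps activate RIG-I, fell at 2 of its 3 probe sets. At 1425974_a_at it read 9.61 and 9.58 on zymosan arrays and 10.31 and 10.11 on unstimulated arrays, 1.53-fold lower (adjusted p = 0.0244). At 1426415_a_at it read 7.46 and 7.25 on zymosan arrays and 8.13 and 7.93 on unstimulated arrays, 1.60-fold lower (adjusted p = 0.0272). At 1419879_s_at, which stands for the gene by its mean, it read 10.07 and 9.99 on zymosan arrays and 10.82 and 10.40 on unstimulated arrays. There the difference was -0.59 (SE 0.16) and missed the threshold (adjusted p = 0.0648), though the arrays did not overlap and the estimates of the 3 probe sets were within 0.09 of each other. Both calls were lost when either zymosan array was left out or when the processing day was taken as a random block, and that at 1426415_a_at also without unstimulated replicate 1.

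Mavs, the mitochondrial adaptor on which RIG-I and MDA5 converge, was not called at either probe set. At 1451176_at it read 7.60 and 7.56 on zymosan arrays and 7.61 and 7.57 on unstimulated arrays, a difference of -0.01 (SE 0.10, adjusted p = 0.963) whose 95% interval ran from -0.27 to 0.24. At 1439185_x_at it read 7.20 and 7.68 on zymosan arrays and 7.64 and 7.85 on unstimulated arrays, a difference of -0.31 (SE 0.19, adjusted p = 0.321) with a 95% interval of -0.77 to 0.16. The groups overlapped at both probe sets, the only 2 of the 19 to do so. The interval at the first probe set leaves room for a fall of 0.27 on the log2 scale and lies above every interval of Ddx58, Ifih1, Dhx58, Ddx60 and Zbp1, while that at the second, which stands for the gene by its mean, meets the interval of Ifih1.

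Eif2ak2, which encodes PKR, read lower on both zymosan arrays at all 3 probe sets and passed the test at none. At 1440866_at it read 6.23 and 6.39 on zymosan arrays and 7.35 and 6.76 on unstimulated arrays, a difference of -0.74 (SE 0.21, adjusted p = 0.0691). At 1422006_at it read 7.21 and 7.01 on zymosan arrays and 7.68 and 7.43 on unstimulated arrays, a difference of -0.44 (SE 0.14, adjusted p = 0.0889). At 1422005_at it read 6.30 and 5.77 on zymosan arrays and 6.46 and 6.79 on unstimulated arrays, a difference of -0.60 (SE 0.21, adjusted p = 0.118). The groups did not overlap at any of the 3, with gaps of 0.17 to 0.36, while the spread within a group reached 0.60. Its promoter holds the same 10-base motif as those of Ddx58, Ifih1 and Ddx60, which were called.

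Zbp1, the sensor of Z-form RNA and DNA, fell at both of its probe sets. At 1419604_at it read 5.49 and 5.43 on zymosan arrays and 6.97 and 6.56 on unstimulated arrays, 2.47-fold lower (SE 0.16 on the log2 scale, adjusted p = 0.0080 by limma). At 1429947_a_at it read 6.03 and 5.99 on zymosan arrays and 7.93 and 7.09 on unstimulated arrays, 2.83-fold lower (SE 0.27, adjusted p = 0.0209). The zymosan arrays lay within 0.06 of each other, and the unstimulated arrays were 0.41 and 0.84 apart at these probe sets, the 0.84 being the widest such pair among the 19. A random block for the day ended the call at 1429947_a_at, and leaving out either zymosan array ended both.

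Adar, the editing enzyme, fell at 1 of its 3 probe sets. The gene is known to be transcribed from an interferon-inducible promoter, which yields a long isoform with a Z-binding domain, and from constitutive promoters, which yield a shorter nuclear one. At 1425405_a_at it read 6.49 and 6.59 on zymosan arrays and 8.23 and 7.84 on unstimulated arrays, 2.82-fold lower (SE 0.16 on the log2 scale, adjusted p = 0.0057). At 1434268_at, of highest mean, it read 8.30 and 8.36 on zymosan arrays and 9.10 and 8.42 on unstimulated arrays, a difference of -0.43 that did not pass (SE 0.23, adjusted p = 0.253). At 1439276_at it read 7.59 and 7.33 on zymosan arrays and 7.20 and 6.98 on unstimulated arrays, a difference of 0.37 that did not pass (SE 0.14, adjusted p = 0.139). The 95% intervals were -1.88 to -1.11, -0.99 to 0.13 and 0.02 to 0.73, so the first did not meet the others. The difference between probe sets was not itself tested, and which isoform each one reads is not given in the sources used here. Of the 3 Adar promoter windows, none held the 10-base motif, and all held the shorter one.

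**Figure D2:**
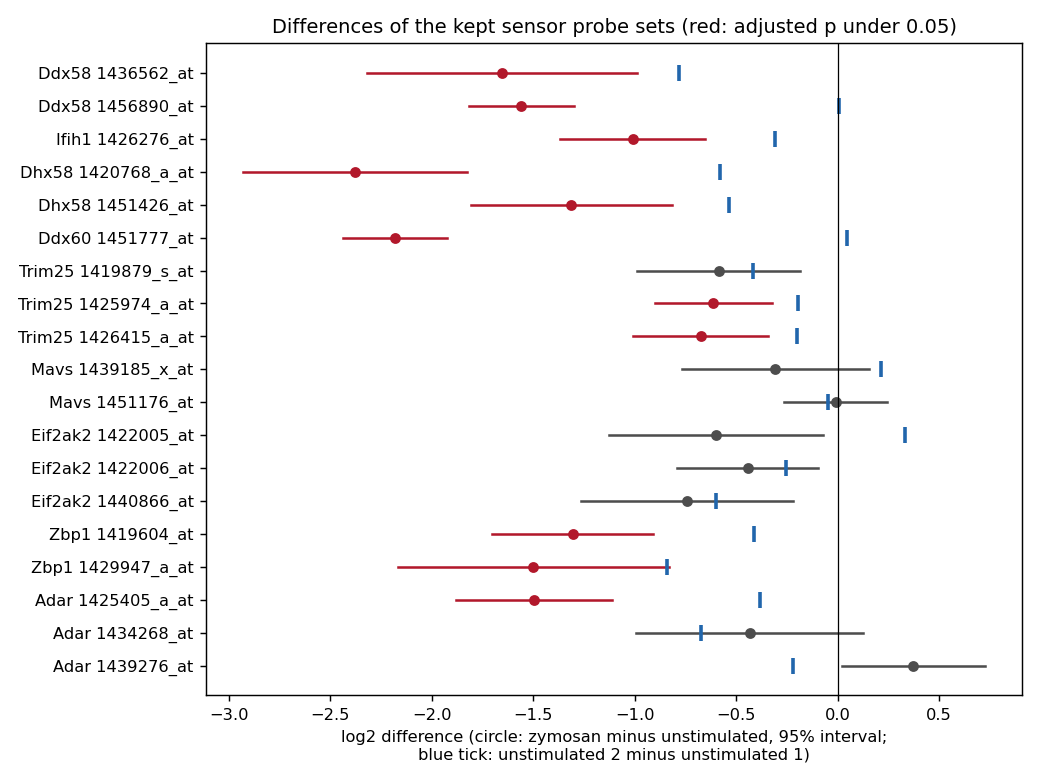
Log2 difference, zymosan minus unstimulated, with its 95% interval from limma for the 19 tested sensor probe sets (red where adjusted p was under 0.05). The blue tick is the difference between the unstimulated arrays themselves, replicate 2 minus replicate 1. The intervals of Ddx58, Ifih1, Dhx58, Ddx60 and Zbp1 end at or below -0.65, those of Mavs include 0, and the ticks are mostly to the left of 0.

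The sensors also differed between the unstimulated arrays. Unstimulated 1 read higher than unstimulated 2 at 15 of the 19 probe sets, where 52.3% of all kept probe sets did so, and the median difference was 0.31 against 0.01 (log2, unstimulated 1 minus unstimulated 2). At 1 probe set a gene, 7 of the 9 sensors read higher on unstimulated 1, beside 57.5% of all genes. The zymosan arrays differed by a median of 0.06 over the same 19. All 11 called probe sets were separated by a gap, from the highest zymosan to the lowest unstimulated array, of 0.47 to 2.13. At all 11 the gap was wider than the distance between the unstimulated arrays. A call already asks for a group difference that is large against the spread within groups, so these gaps are no separate support for the calls. Ddx60 and the Ddx58 probe set 1456890_at were the called ones that did not read higher on unstimulated 1. The counts that follow leave out an unstimulated array, so the spread within groups came from the zymosan pair alone, which shared 1 day. Such spread holds no variation between days, while the unstimulated arrays were 16 days apart. More calls in these fits are therefore no added support for a fall, and these counts cannot test the unstimulated pair. Without unstimulated replicate 1, 10 of the 19 were called lower, beside 8.27% of all kept probe sets, and without unstimulated replicate 2, 14 were, beside 7.11%. The 14 took in Trim25 at 1419879_s_at, Eif2ak2 at 1440866_at and Adar at 1434268_at. At 1 probe set a gene, 5 of the 9 genes were lower without unstimulated replicate 1 (8.23% of all genes) and 8 without unstimulated replicate 2 (8.57%), all but Mavs.

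The genes around the sensors did not share one direction. Of the 22 measured genes downstream of MAVS, 2 fell and 1 rose by limma, with a median difference of 0.03, where 6.73% of all genes fell and 10.1% rose. Irf7, the interferon-induced factor that amplifies interferon transcription, read 5.95 and 5.77 on zymosan arrays and 9.24 and 8.09 on unstimulated arrays, a difference of -2.81 (SE 0.35, adjusted p = 0.00676), and Mapk14, the p38 kinase, fell by 0.63 on the log2 scale. Ikbke, the kinase IKK-epsilon, rose 1.67-fold, with 9.39 and 9.36 on zymosan arrays and 8.55 and 8.71 on unstimulated arrays (adjusted p = 0.00977). Tbk1 differed by -0.12 (adjusted p = 0.439), Irf3 by 0.01 (adjusted p = 0.942) and Sting1, the adaptor of cytosolic DNA sensing, by -0.09 (adjusted p = 0.570). Ifnb1, the interferon-beta gene, lay below the filter's level on all arrays, at 3.85 and 3.97 with zymosan and 4.28 and 3.86 without stimulus.

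Regulators and cofactors of the sensors were called in both directions, 8 of 39 lower (20.5%, beside 6.73% of all genes) and 6 higher (15.4%, beside 10.1%), with a median of -0.05. Among the lower were Usp18, Uba7 and Ube2l6, which attach or remove the ubiquitin-like ISG15 (differences -2.04, -1.43 and -1.36), Trim14, an adaptor at MAVS (-0.82), and Nlrx1, a mitochondrial regulator (-0.70). Otub1, a deubiquitinase, read 4.59-fold lower at its probe set of highest mean and was not called at its other one (difference -0.30, adjusted p = 0.109). Higher were Tnfaip3, the ubiquitin editor A20 (6.21-fold), and 3 ubiquitin ligases that act on RIG-I, Mex3c (2.52-fold), Rnf125 (difference 1.01) and Rnf135, or Riplet (1.37-fold, adjusted p = 0.0294). Trim25, another ligase of RIG-I, was lower at 2 of its 3 probe sets. Prkra, a protein activator of PKR, differed by -0.19 (adjusted p = 0.317).

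The lists around PKR and ZBP1 held few called genes, and 10.1% of all genes were called higher and 6.73% lower. Of 16 eIF2-alpha kinase and phosphatase genes 2 rose and 0 fell by limma (at an unadjusted p under 0.05, 3 and 0; median 0.12), namely Ppp1r15a, the stress-induced subunit of the eIF2-alpha phosphatase (1.71-fold, adjusted p = 0.0100), and Eif2b3 (1.44-fold). Of 11 genes of necroptosis and ZBP1 partners 2 rose and 0 fell (at an unadjusted p under 0.05, 3 and 1; median 0.09), the caspase-8 inhibitor gene Cflar (3.13-fold at its probe set of highest mean, with 2 of its 4 others also called higher) and Birc3 (2.47-fold), both also NF-kB targets. Ripk3, the kinase that ZBP1 engages, read 8.61 and 8.53 on zymosan arrays and 9.34 and 8.77 on unstimulated arrays and was not called (difference -0.48, adjusted p = 0.143). Mlkl, its substrate, differed by 0.15 (adjusted p = 0.617). Of 10 other RNA editing and double-stranded RNA binding genes, Ilf2 fell 1.53-fold at the probe set of highest mean and was not called at its other one (difference 0.36), and Strbp rose 1.35-fold at its probe set of highest mean in the fit of genes (adjusted p = 0.0429). That call was lost without a filter, and in the fit of all probe sets the same probe set was not called (adjusted p = 0.0561) and 1 of its 3 others was. Adarb1, a second editing enzyme, differed by -0.09 (adjusted p = 0.647).

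Other sensors of nucleic acids were lower in part, where 6.73% of all genes were called lower and 10.1% higher. Of 10 OAS and RNase L genes, most of whose products make or read the 2-5A signal of double-stranded RNA, 6 fell and 0 rose by limma (at an unadjusted p under 0.05, 7 and 0; median -1.02). Oasl2 was 8.56-fold, Oas3 3.87-fold, Oas1a 2.99-fold and Oas2 2.73-fold lower. Of 15 further sensors and their regulators 4 fell and 0 rose (at an unadjusted p under 0.05, 7 and 0; median -0.34), namely Tlr8 (2.37-fold), the nucleotide hydrolase gene Samhd1 (2.03-fold), Unc93b1, the chaperone of endosomal Toll-like receptors (1.63-fold), and Tlr7 (1.49-fold, adjusted p = 0.0416).

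Genes of the interferon receptor and of ISGF3, the factor that carries its signal, were called lower for 3 of 12 and higher for 3 of 12, where 6.73% of all genes were lower and 10.1% higher (median -0.20). Irf9, the DNA-binding subunit of ISGF3, read 7.35 and 7.35 on zymosan arrays and 8.86 and 8.63 on unstimulated arrays, 2.63-fold lower (adjusted p = 0.00224). Stat2, another subunit, differed by -0.88 and was not called (SE 0.25, adjusted p = 0.0643). Ifnar2, a receptor chain, fell by 0.59, and Ifnar1, the other chain, differed by -0.26 (adjusted p = 0.153). Irf1 rose 4.17-fold, the feedback inhibitor gene Socs3 3.88-fold, and Socs1 fell by 0.62. Jak1 rose 1.81-fold at its probe set of highest mean, fell by 1.11 at another and was not called at the third (difference 0.28). Over all these lists and 9 housekeeping genes, each gene once, 25 of 141 fell (17.7%, beside 6.73% of all genes) and 15 rose (10.6%, beside 10.1%). Without zymosan replicate 1, 7 fell and 6 rose, beside 0.998% and 1.49% of all genes, and without zymosan replicate 2, 5 fell and 6 rose, beside 0.756% and 1.22%. Of 9 housekeeping genes 1, Ywhaz, was lower, with a median of 0.01. Myd88, disrupted in both groups per the labels, read 8.37 and 8.40 on zymosan arrays and 8.72 and 8.78 on unstimulated arrays, well over the filter's level (difference -0.37, adjusted p = 0.0506). All 4 arrays carry the same genotype label, and whether its probes lie in the deleted part is not stated in the sources used here.

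**Figure D3:**
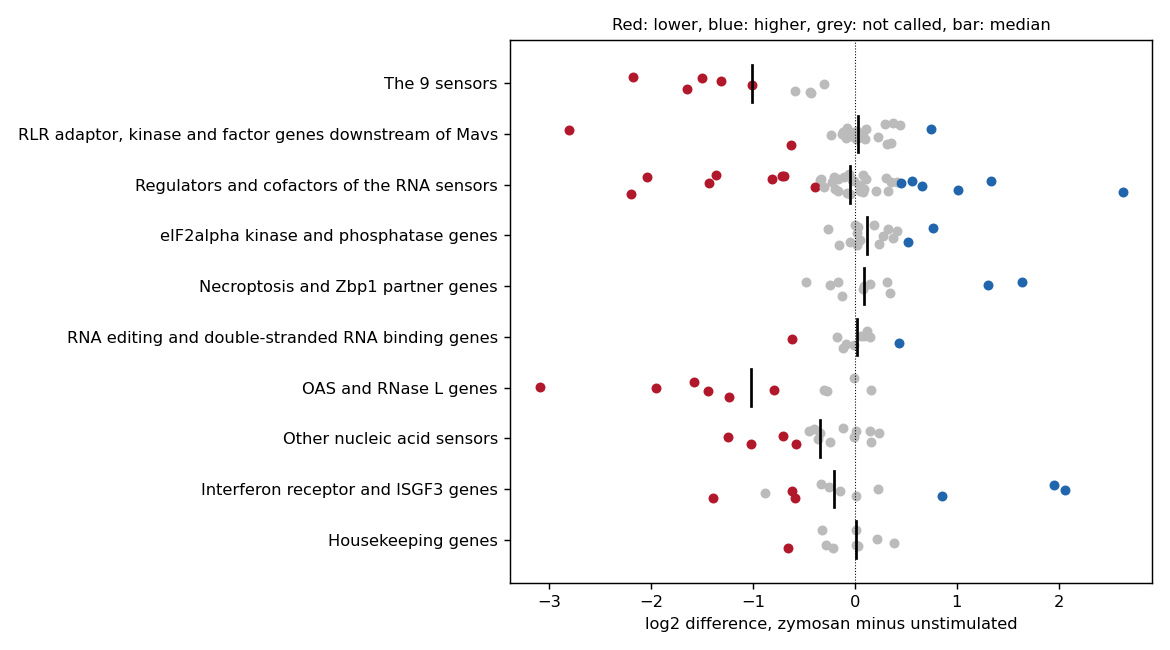
Log2 difference, zymosan minus unstimulated, of the 9 sensors and of the genes around them, 1 point a gene at its probe set of highest mean, with the median as a bar. Red genes were lower and blue ones higher by limma's test over all genes. The sensors (median -1.01) and the OAS and RNase L genes (median -1.02) lie to the left, while the other lists have medians between -0.34 and 0.12.

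The genes nearest to each sensor across the 4 arrays were found by the root mean square difference of array values after each gene's own mean was subtracted. Nearest to Ddx58 were Gm11545, Irgm1 and Oas1a, at 0.10, 0.11 and 0.12 on the log2 scale. Nearest to Zbp1 were Gm11545, Kifc1 and Fcrl1 (0.03, 0.06 and 0.10), and to Dhx58 Tnfsf14, L1cam and Isg20 (0.06, 0.07 and 0.07). Ddx60 had no gene closer than 0.13, where Nfam1 stood, followed by Cass4 (0.14) and Marchf1 (0.16), and 13 genes lay within 0.2 of it. Ifih1 had Haghl, Trim34a and Zfp36l2 nearest (0.02, 0.04 and 0.04). Within 0.2 lay 214 genes for Ifih1, 65 for Dhx58, 26 for Zbp1 and 19 for Ddx58. For Trim25 (Tdrd7, Mndal and Rgl2), Adar (Cxcr4, H2-Ab1 and Tmem140), Eif2ak2 (Maged1, St3gal5 and Cacna2d4) and Mavs (Tubb2b, Tubgcp3 and Tlr5), 690 to 3060 genes lay within 0.2, so with 4 arrays their nearest genes single out little.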

How the data were processed

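RNA was measured on 4 arrays, 2 a group. The deposited values are log2 expression values that, per the submitters' processing notes, the authors made with RMA, which corrects background, gives arrays a common distribution and yields a value even for an absent transcript. Its version, and whether further arrays were normalized with these, is not stated here. Array medians lay between 4.92 and 4.95. Of 45037 probe sets left after 64 controls, 34945 had 1 gene symbol in the platform annotation, 932 several and 9160 none. Probe sets at or above an array's 40th percentile (4.36 to 4.39) on at least 2 arrays were kept, 27571 in all, which gave 13222 genes at their probe set of highest mean.

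Differences are zymosan minus unstimulated, tested 2-sided with limma 3.58.1 in R 4.3.3 (lmFit, then eBayes), with Benjamini-Hochberg adjustment across the kept probe sets, or across genes, and a threshold of 0.05. Values of the sensors come from the probe set fit, and values and counts of other genes from the gene fit, other probe sets of a gene aside. SE is limma's moderated one. An exact permutation test of 2 against 2 arrays cannot go below p = 0.333. Where both zymosan arrays lay below the filter's level, the fold was taken against that level. The fit was tested on simulated data with known changes. Named genes were the sensors, the called genes of each list with the lowest p (at most 4), and a set list of pathway genes, plus called list members named after their values were seen (Usp18, Uba7, Ube2l6, Nlrx1, Rnf125, Ifnar2 and Socs1). Nearest genes were the 3 of smallest distance. Members and lists were chosen with earlier results of these data known. Processing days came from the scanner's settings.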

Additional observations from a re-analysis of the deposited data

How the results depend on the processing

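No sensor value that was called changed sign under any alternative tried (no filter, a filter at the 60th percentile, arrays shifted to a common median, quantile normalization, an intensity trend or robust eBayes, each array left out, the day as a random block, or limma's treat against a fold of 1.5). The 11 called sensor probe sets had 132 values under these, of which 105 stayed called and 27 did not; the others had 96, of which 4 became called. Leaving out 1 array in turn gave 3 to 14 sensor probe sets and 1 to 8 sensor genes lower, and 5 to 27 list genes lower and 6 to 22 higher; a group's lone array is then assumed to vary like the other group, and fewer arrays enter the fit. Against a fold of 1.5, 4 sensor probe sets (of Dhx58, Adar, Ddx60 and Ddx58) and 1 gene, Ddx60, were lower, and 7 list genes lower and 6 higher, where treat asks more of each gene by construction. The random block, chosen after seeing the data with a within-day correlation of 0.54 (probe sets) or 0.57 (genes) taken from the spread of the pairs, left 8 sensor probe sets lower and 14 list genes lower and 9 higher, against 25 and 15 without it; the planned duplicateCorrelation could not be fitted with 4 arrays. The mean over a gene's probe sets called 7 sensor genes lower. No paired analysis was possible because the labels give the arrays no shared replicate numbers. Signals near the filter's level, as at Dhx58 and Ddx60 after zymosan, limit the folds.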
